A study of Trametes versicolor with 12 samples.

Results

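The 100 transcripts examined here were the ones that stayed abundant in every condition of a culture experiment with the white-rot fungus Trametes versicolor. Members were chosen by level. Reads assigned to each gene were scaled to CPM, counts relative to an equal total of gene reads in each library, averaged over the 3 libraries of each of 4 groups, and genes were ranked by the lowest of their 4 group means. The first 100 of 14296 gene models were kept. The levels that chose them are therefore given as a description, without a test. The rule used no contrast between groups, but a gene that was scarce in any 1 group could not enter.

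In growing fungal cells a small number of transcripts commonly makes up a large share of the messenger RNA, among them those for ribosomal proteins, translation factors, histones, glycolytic enzymes and small secreted or cell-wall proteins. Sequencing divides a fixed total of reads among all transcripts, so a larger share for one set leaves a smaller share for the others. White-rot fungi are best known for the secreted laccases and peroxidases with which they attack lignin, and malt agar is a sugar-rich medium without wood. Neither the deposited files nor the gene table used for names carried product descriptions. Members are therefore named by locus tag, with no function assigned, and the classes above could not be counted. The 92 members with a locus tag were matched through their protein number, and the other 8 are called by that number.

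Mycelium was harvested from 2 strains, BRFM1218 and 1956-1252, after 2 or 4 weeks on agar with 4% malt. Each strain and age was represented by 3 libraries of total RNA from separate cultures, 12 libraries in all, and each strain is a single isolate. No treatment or genetic change was applied to any group. Libraries held 31763162 to 74647672 gene reads, of which 98.7 to 99.17% were unique, and no pair of libraries held identical values. The least abundant member in any library still had 19695 reads, and all 100 members passed the filter on low counts. Counting error was accordingly small beside the spread between cultures.

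The 100 transcripts took between 16.4 and 19.8% of all gene reads. Their share was 19.5% ± 0.282 (SD, n = 3 per group here and below) in BRFM1218 at 2 weeks and 18.4% ± 0.398 at 4 weeks. In 1956-1252 it was 17.6% ± 0.137 at 2 weeks and 16.7% ± 0.301 at 4 weeks. The 4 groups did not overlap, with libraries from 19.2 to 19.8%, 17.9 to 18.6%, 17.5 to 17.7% and 16.4 to 17.0% in the same order. The share was thus lower at 4 weeks than at 2 weeks in both strains, and lower in 1956-1252 than in BRFM1218 at both ages. In RNA of whole mycelium, a different level per cell and a different mix of cells cannot be told apart.

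**Figure D1:**
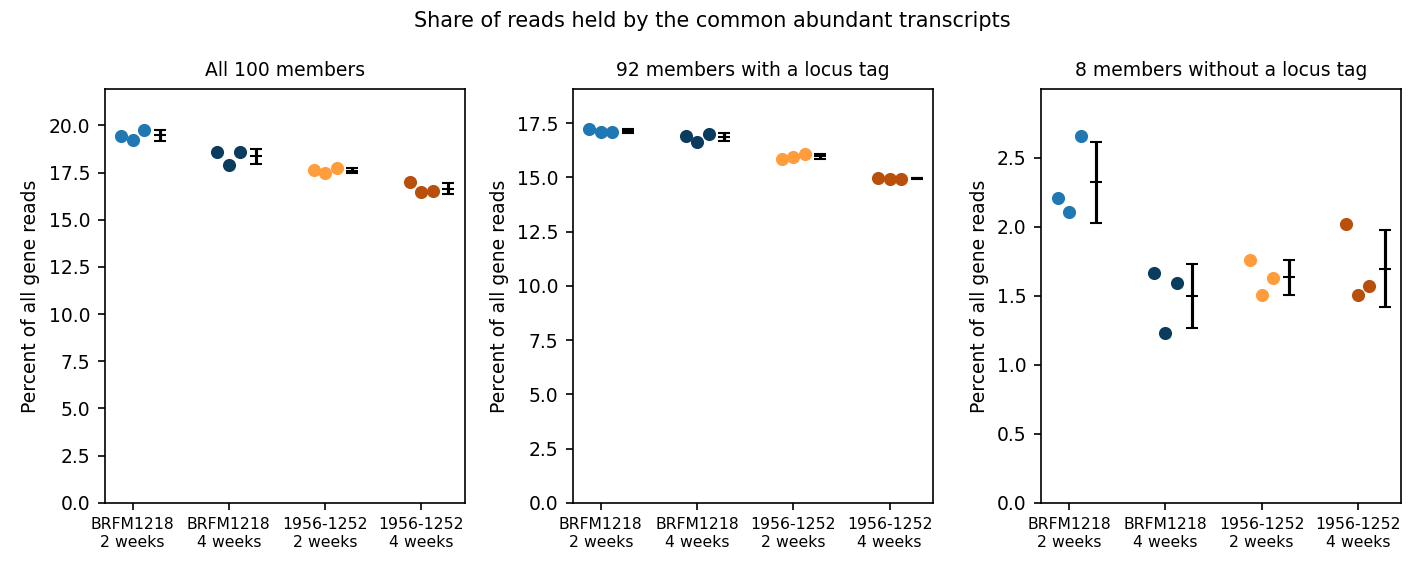
Percent of all gene reads held by all 100 members, by the 92 members with a locus tag and by the 8 without one. Each point is 1 library and the bar beside each group is the mean with its SD (n = 3); for all 100 the group means fall from 19.5% in BRFM1218 at 2 weeks to 16.7% in 1956-1252 at 4 weeks, while the 8 models without a locus tag stand at 2.32% in BRFM1218 at 2 weeks and at 1.50 to 1.70% in the other 3 groups.

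Most of the age difference in BRFM1218 came from 8 short models. The 92 members with a locus tag held 17.1% ± 0.0755 of reads at 2 weeks and 16.9% ± 0.176 at 4 weeks in that strain, and libraries of the 2 ages still did not overlap (17.1 to 17.2% against 16.7 to 17.0%). The 8 models without a locus tag held 2.32% ± 0.292 and 1.50% ± 0.232. The net change with age was -1.12 percentage points over all 100 and -0.291 once those 8 were left out. In 1956-1252 the 92 held 16.0% ± 0.127 at 2 weeks and 15.0% ± 0.0194 at 4 weeks, and the 8 held 1.63% ± 0.125 and 1.70% ± 0.282, so the loss with age there was carried by the tagged members.

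Larger movements in both directions lay under these small net differences. In BRFM1218, 44 members had a larger mean share at 4 weeks, summing to 2.56 percentage points, and 56 had a smaller one, summing to -3.67 points. The ages of 1956-1252 differed less: the rises of 40 members summed to 0.952 points and the falls of 60 to -1.90. Between strains at 2 weeks, 34 members with a larger share in 1956-1252 summed to 3.66 points and 66 with a smaller share to -5.52. At 4 weeks the sums were 3.67 points over 48 members and -5.36 over 52.

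The order of the group means depended on the measure and on the number of genes kept. In the top 50, the mean share of reads of BRFM1218 at 4 weeks (12.3% ± 0.310) was slightly below that of 1956-1252 at 2 weeks (12.4% ± 0.111). In the top 200 the 2 means were 25.0% ± 0.431 and 25.3% ± 0.150. Both gaps were smaller than the SD of BRFM1218 at 4 weeks. As a share of the summed RPKM of a library, where each count is divided by the length of its model, the 100 members held 26.9% ± 1.01 and 22.9% ± 1.06 in BRFM1218 at 2 and 4 weeks. In 1956-1252 they held 26.0% ± 0.463 and 24.7% ± 1.10. On this scale every library of 1956-1252 at 4 weeks, from 23.9 to 26.0%, lay above every BRFM1218 library of that age, from 21.7 to 23.5%, which is the reverse of the order in reads. For the 92 tagged members alone the RPKM share was 16.1% ± 0.152 and 16.0% ± 0.0532 in BRFM1218 against 18.1% ± 0.204 and 16.7% ± 0.200 in 1956-1252, higher in 1956-1252 at both ages.

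The summed shares of higher and lower ranks shifted in different ways. The first 10 ranks held 4.80% ± 0.0745 and 4.09% ± 0.172 of reads in BRFM1218 at 2 and 4 weeks, and 4.19% ± 0.0745 and 4.27% ± 0.134 in 1956-1252. Ranks 11 to 50 held 7.99% ± 0.230 and 8.21% ± 0.150 in BRFM1218, and 8.24% ± 0.0835 and 7.43% ± 0.168 in 1956-1252. Their libraries overlapped between strains at 2 weeks and between the ages of BRFM1218. Ranks 51 to 100 held 6.68% ± 0.0476 and 6.04% ± 0.0921 in BRFM1218, and 5.17% ± 0.0778 and 4.95% ± 0.0171 in 1956-1252. The strain difference in the summed share of reads was thus widest in absolute terms in ranks 51 to 100. The ranges of these ranks did not overlap between strains, while at 4 weeks those of the first 10 ranks did. As a share of summed RPKM, ranks 51 to 100 held 6.34 and 5.72% in BRFM1218 and 6.30 and 6.11% in 1956-1252. On that scale the strains overlapped at 2 weeks, and 1956-1252 was higher at 4 weeks.

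TRAVEDRAFT_57970 ranked first. It took 0.883, 0.884 and 0.849% of reads in the 3 libraries of BRFM1218 at 2 weeks and 0.975, 0.920 and 0.987% at 4 weeks. In 1956-1252 the values were 0.751, 0.732 and 0.795% at 2 weeks and 0.750, 0.691 and 0.722% at 4 weeks. Every BRFM1218 library was above every 1956-1252 library, and the ages of 1956-1252 overlapped. TRAVEDRAFT_30062, in rank 2, had nearly equal shares in the strains at each age, with group means of 0.409 and 0.347% in BRFM1218 and 0.411 and 0.341% in 1956-1252.

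Other leading members changed places with strain and age. TRAVEDRAFT_110730, in rank 5, took 0.734, 0.711 and 0.718% of reads in BRFM1218 at 2 weeks but 0.289, 0.296 and 0.282% at 4 weeks. In 1956-1252 it took 0.665, 0.675 and 0.725% and then 0.660, 0.614 and 0.603%, so BRFM1218 at 4 weeks stood apart from the other 3 groups. TRAVEDRAFT_163607, in rank 4, took 0.665, 0.674 and 0.667% in BRFM1218 at 2 weeks and 0.461, 0.453 and 0.481% at 4 weeks. In 1956-1252 it moved the other way, from 0.303, 0.323 and 0.277% to 0.553, 0.612 and 0.599%. TRAVEDRAFT_57408, in rank 7, had its highest group mean in BRFM1218 at 4 weeks, 0.520% against 0.338% at 2 weeks and 0.284 and 0.241% in 1956-1252. TRAVEDRAFT_22021, in rank 8, was the only 1 of the first 10 with a higher mean share in both 1956-1252 groups, 0.645 and 0.528%, than in both BRFM1218 groups, 0.268 and 0.240%.

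The remaining ranks of the first 10 were 2 models without a locus tag, protein number 137427 in rank 3 and protein number 41103 in rank 6, and TRAVEDRAFT_139903 and TRAVEDRAFT_115187 in ranks 9 and 10. TRAVEDRAFT_139903 took 0.377 and 0.262% of reads in BRFM1218 at 2 and 4 weeks and 0.239 and 0.236% in 1956-1252. TRAVEDRAFT_115187 took 0.343 and 0.430% in BRFM1218 and 0.232 and 0.328% in 1956-1252, higher at the later age in both strains. Only 90.6% of its reads were unique, so part of its level may belong to a near-identical copy.

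**Figure D2:**
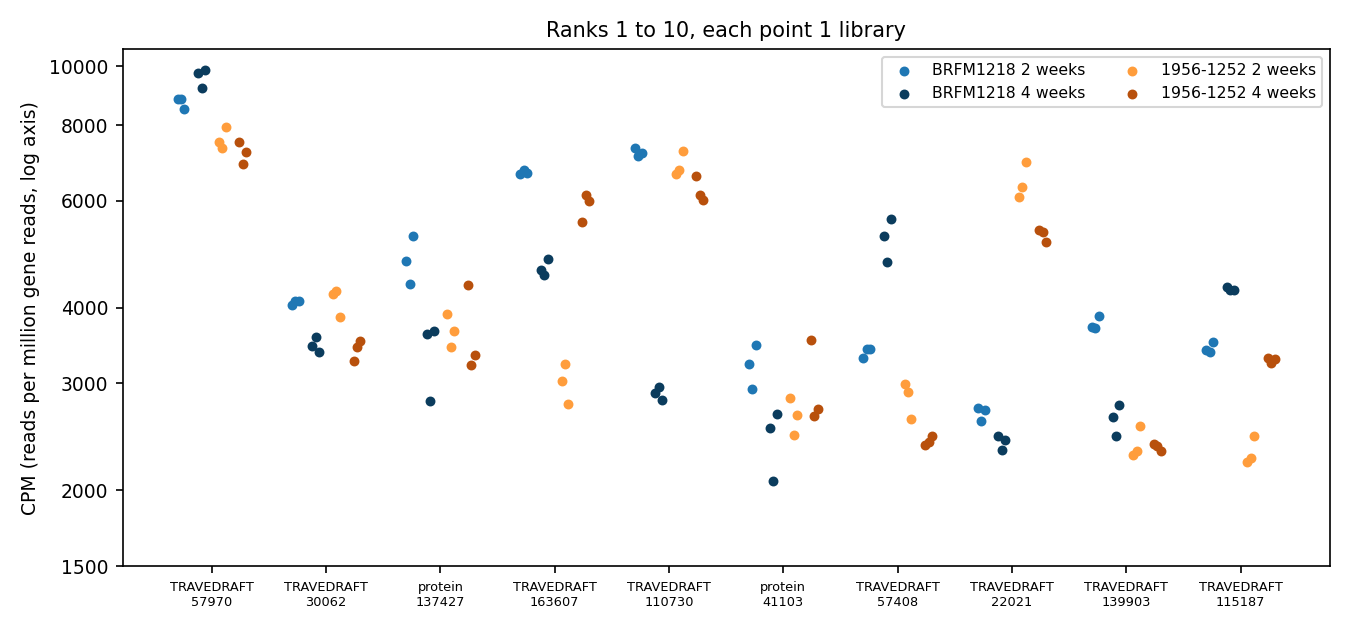
CPM of the 10 members with the highest lowest-group mean, on a log axis, in rank order from left to right, with 1 point per library coloured by strain and age. TRAVEDRAFT_57970 lies above the other 9 in both BRFM1218 groups, TRAVEDRAFT_110730 is low only in BRFM1218 at 4 weeks, and TRAVEDRAFT_163607 falls with age in BRFM1218 and rises with age in 1956-1252.

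The 8 models without a locus tag were unlike the other members. Of all 14296 models 46 had no locus tag (0.322%), and 8 of these 46 were members. They were 150 to 366 nt long, with a median of 178.5 nt, against 1309.5 nt for the tagged members, and their mean RPKM of 7249 to 13443 was among the highest of the set. Protein numbers 137427, 137431 and 137426, the 3 members with the highest mean RPKM, reached 13443, 12568 and 12122.

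The spread of these 8 between cultures was wide and shared. Their coefficient of variation over replicates, as the median of the 4 groups, was 10.6 to 22.2%, against a median of 2.98% for the tagged members. In BRFM1218 at 2 weeks replicate 3 was highest in 8 of 8, and in both groups of 1956-1252 replicate 1 was highest in 8 of 8. Replicate 2 was lowest in 7 of 8 in both BRFM1218 groups and in 8 of 8 in both 1956-1252 groups. The part that library preparation or mapping has in this shared spread was not tested. For 2 of them the counting is uncertain: 50.4% of the reads of protein number 137427 and 0.00527% of those of protein number 36643 were unique, the rest being shared with other places.

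Being abundant in all groups was not the same as being the most abundant in each. Of the 100 genes with the highest mean CPM in a group, 61 were members in BRFM1218 at 2 weeks, 55 at 4 weeks, and 58 and 61 in 1956-1252. Those group-specific lists took 25.4% ± 0.207 and 25.0% ± 0.122 of reads in BRFM1218 and 21.4% ± 0.101 and 20.3% ± 0.261 in 1956-1252. Non-members on these lists held 9.43 and 10.5% of reads in BRFM1218 and 7.06 and 6.52% in 1956-1252. Only 34 genes were on the lists of all 4 groups. All of them were members by construction: every list ended at 955 CPM or more, above the threshold of 585 CPM for members. On none of the lists were 14 members, which entered by being even rather than by ranking high anywhere.

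The 4 groups were not equally limiting. The lowest group mean of a member fell in 1956-1252 at 4 weeks for 35 members, in BRFM1218 at 4 weeks for 30, and in the 2-week groups of 1956-1252 and BRFM1218 for 18 and 17. The highest group mean was in BRFM1218 at 2 weeks for 41. At the threshold, TRAVEDRAFT_172975 and TRAVEDRAFT_168053 in ranks 99 and 100 had lowest group means of 587 and 585 CPM. TRAVEDRAFT_64103 and TRAVEDRAFT_25481, just outside, had 584 and 580.3.

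Levels above the threshold in some group were common outside the set, in 350 genes. The 3 with the highest single group mean differed widely in level between strains. A wide gap between some groups follows from this choice, since a non-member lies below the threshold in at least 1 group. TRAVEDRAFT_150580 averaged 7224 and 9501 CPM in BRFM1218 at 2 and 4 weeks but 199 and 135 CPM in 1956-1252. TRAVEDRAFT_141737 averaged 8711 and 6838 CPM in BRFM1218 and 8.59 and 38.8 CPM in 1956-1252. TRAVEDRAFT_31303 showed the opposite order, 406 and 364 CPM in BRFM1218 and 7237 and 6671 CPM in 1956-1252.

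Age changes were then compared gene by gene, to see which members lay behind the lower share at 4 weeks. Levels below are CPM after scaling by trimmed means of M values (TMM), called normalised CPM, and a gene is called where the edgeR quasi-likelihood test over all 12648 tested genes gave a Benjamini-Hochberg adjusted p below 0.05. In BRFM1218, 40 members were higher and 53 lower at 4 weeks, and 7 were not called. Over all tested genes 33% were higher and 27.4% lower, and 60.4% were called. Abundant genes were called more often in general: in the 400 genes ranked next, up to rank 500, 31.2% were higher and 46% lower. The median log2 fold change of the members was -0.18, against 0.06 over all tested genes. Without the 8 untagged models, each of them lower, 40 were higher and 45 lower, with a median of -0.09. Changes of 2-fold or more were called in 7 members, 2 higher and 5 lower. Of all tested genes 9.46% were higher by that much and 5.9% lower, 15.4% in all. In the next 400 ranks 4.5% changed by that much, and the rule itself favours small differences between groups.

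The deepest fall in BRFM1218 was that of TRAVEDRAFT_110730. Its normalised CPM was 8856, 8549.8 and 8766 at 2 weeks and 3479, 3563 and 3337 at 4 weeks, a log2 fold change of -1.33 (SE 0.04, edgeR adjusted p = 1.43e-13). TRAVEDRAFT_36747 fell from 1893, 1929 and 1934 to 850.1, 933 and 795 (-1.16, SE 0.05, edgeR adjusted p = 6.62e-12). TRAVEDRAFT_47672 fell from 2734, 2711 and 2772 to 1338, 1291 and 1334 (-1.05, SE 0.04, edgeR adjusted p = 2.84e-13). In each of these 3 every 4-week library was far below every 2-week library. Among the first 10 ranks, TRAVEDRAFT_163607 and TRAVEDRAFT_139903 each fell by 0.54 on the log2 scale.

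The largest rises in BRFM1218 were of somewhat smaller size. TRAVEDRAFT_30564 rose from 1152, 1152 and 1138 to 2424, 2345 and 2369.7 normalised CPM (1.05, SE 0.04, edgeR adjusted p = 4.75e-13). TRAVEDRAFT_25375 rose from 2347, 2429.6 and 2349.9 to 4589, 5632 and 4204 (1.02, SE 0.09, edgeR adjusted p = 5.43e-08), with a wider spread at 4 weeks. TRAVEDRAFT_169754 rose from 2221, 2185 and 2330.0 to 4016, 3668 and 4213 (0.82, SE 0.05, edgeR adjusted p = 1.22e-10). Ages did not overlap in any of these 3. TRAVEDRAFT_57408 rose by 0.60 on the log2 scale. TRAVEDRAFT_57970 rose slightly, by 0.12 (SE 0.04, edgeR adjusted p = 0.0156), a call that ended with scaling by relative log expression, with DESeq2 and in 6 of the 12 fits that left out 1 library. Those were the fits without BRFM1218 2-week replicate 3, BRFM1218 4-week replicate 1 or 3, or any 1 of the 1956-1252 4-week libraries, with log2 values from 0.08 to 0.11.

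The 8 untagged models were called lower with age in BRFM1218, by log2 fold changes from -0.94 to -0.31. Protein number 137643 went from 3414, 3133 and 3868 normalised CPM to 1869, 1585 and 2035 (-0.92, SE 0.11, edgeR adjusted p = 9.24e-07). Protein number 36643 went from 3649, 4179 and 6232 to 3639, 1907 and 1757 (-0.94, SE 0.22, edgeR adjusted p = 0.00157). Its ages nearly met at 3649 and 3639, and with so few unique reads its fall cannot be checked on those alone. The fall of protein number 137432 (-0.31, edgeR adjusted p = 0.0367) was not called with DESeq2 at -0.32, nor without BRFM1218 2-week replicate 1, BRFM1218 2-week replicate 3 or BRFM1218 4-week replicate 2, at -0.32, -0.24 and -0.18. In 1956-1252 none of the 8 was called with age, with log2 fold changes from -0.15 to 0.21.

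In 1956-1252 the age changes were smaller and mostly downward. Of the 100 members 14 were higher, 50 lower and 36 not called, where 25.1% of all tested genes were higher, 23.4% lower and 48.6% called. In the next 400 ranks, 17% were higher and 55.5% lower, so the excess of falls was shared with other abundant genes. The median was -0.12, against 0.01 over all tested genes. No member was called with a change of 2-fold or more, where 5.11% of all tested genes were higher and 0.893% lower by that much. In the next 400 ranks 1.75% changed by that much.

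TRAVEDRAFT_163607 had the largest rise in 1956-1252. Its normalised CPM was 2573, 2739 and 2334 at 2 weeks and 4539, 4974 and 4892 at 4 weeks (0.91, SE 0.05, edgeR adjusted p = 1.66e-10). TRAVEDRAFT_68340 rose from 511, 483 and 506 to 916, 914 and 915 (0.87, SE 0.04, edgeR adjusted p = 4.97e-12). TRAVEDRAFT_31191 rose from 641, 661 and 706 to 1144, 1096 and 1119.6 (0.74, SE 0.05, edgeR adjusted p = 1.47e-09). Ages did not overlap in any of the 3.

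The largest falls in 1956-1252 were of similar size. TRAVEDRAFT_30445 fell from 3470.5, 3549 and 2918 to 1568, 1781 and 1718 normalised CPM (-0.97, SE 0.06, edgeR adjusted p = 1.14e-09). TRAVEDRAFT_159607 fell from 2739, 2784 and 2648 to 1629, 1629 and 1641 (-0.74, SE 0.04, edgeR adjusted p = 7.13e-11). TRAVEDRAFT_161318 fell from 6580.4, 6339.6 and 5989.6 to 3752, 3867 and 4049 (-0.70, SE 0.04, edgeR adjusted p = 5.43e-10), and its change of -0.268 percentage points of reads was the largest fall of any member in that strain. All 3 were called higher with age in BRFM1218, by 0.68, 0.11 and 0.29 on the log2 scale. The rise of TRAVEDRAFT_159607 there was not called when only the 2 groups compared were fitted or in 6 of the 12 fits that left out 1 library, which were those without BRFM1218 2-week replicate 2, BRFM1218 4-week replicate 1 or 2, or any 1 of the 1956-1252 4-week libraries (log2 values 0.07 to 0.10).

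The direction of change with age was shared by 33 members. Of these, 25 were lower in both strains and 8 higher in both, where 9.48 and 11% of all tested genes were. In 23 members the gene was higher in BRFM1218 and lower in 1956-1252, where 7.26% of all tested genes were, and in 4 it was the other way round, where 6.1% were. The other 40 were called in 1 strain or in neither, 3 of them in neither.

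The difference between the strains in their age change was tested as an interaction, with positive values where 1956-1252 had the higher log2 fold change. It was called in 79 members, of which 45 had a positive and 34 a negative value. Of all tested genes 25.6% were positive and 27.2% negative, and 52.9% were called; in the next 400 ranks, 72% were. Values of at least 1 on the log2 scale were called positive in 4 members and negative in 7. Of all tested genes 8.89 and 8.3% had one, and in the next 400 ranks 5.75% did, in either direction. TRAVEDRAFT_163607 had the largest positive value, 1.45 (SE 0.07, edgeR adjusted p = 2.63e-11), followed by TRAVEDRAFT_36747 with 1.28 and TRAVEDRAFT_110730 with 1.15. The largest negative values were those of TRAVEDRAFT_30445 with -1.65 (SE 0.09, edgeR adjusted p = 8.04e-11), TRAVEDRAFT_30564 with -1.50 and TRAVEDRAFT_169073 with -1.14. TRAVEDRAFT_169073 went from a mean of 764 to 1149 normalised CPM in BRFM1218 and from 729.9 to 499 in 1956-1252. TRAVEDRAFT_30564, which rose in BRFM1218, fell in 1956-1252 from 1774, 1821 and 1929 to 1324, 1387 and 1336.

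**Figure D3:**
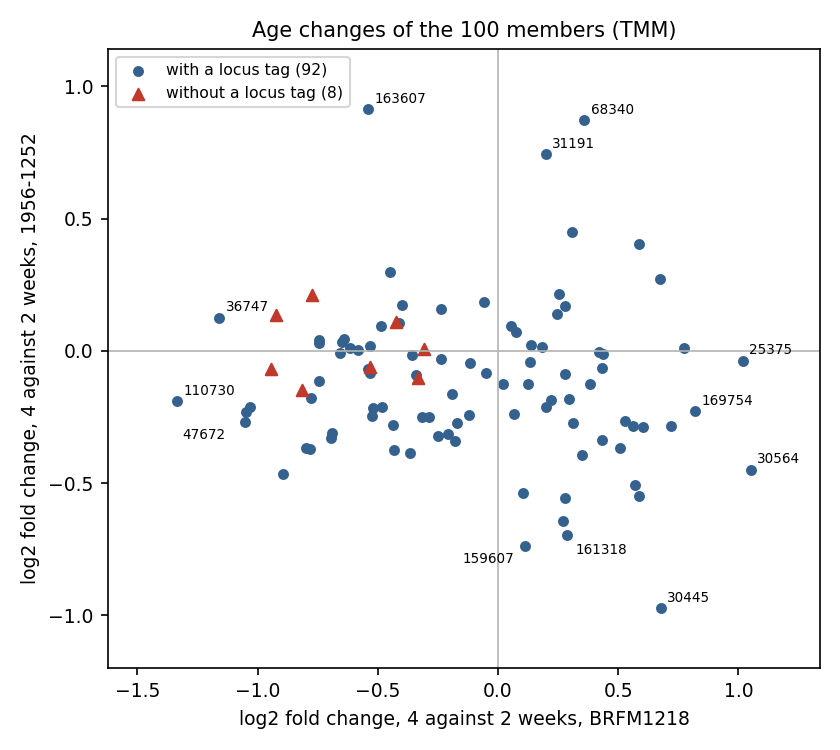
Log2 fold change at 4 against 2 weeks in BRFM1218 (x axis) and in 1956-1252 (y axis) for the 100 members after TMM scaling, with 1 point per member, triangles for the 8 without a locus tag and the numbers of some locus tags. The x values run from -1.33 to 1.05 and the y values from -0.97 to 0.91, and the triangles all lie left of 0 and near 0 on the y axis.

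Strain differences were larger than age changes, and their direction depended on how libraries were scaled. With TMM, 18 members were higher and 77 lower in 1956-1252 at 2 weeks, where 44.4% of all tested genes were higher, 40.4% lower and 84.7% called. At 4 weeks 17 were higher and 74 lower, where 44.9% were higher, 40.6% lower and 85.5% called. A gap of 2-fold or more was called higher in 4 and lower in 37 members at 2 weeks. Of all tested genes 29.2 and 23.3% had one. At 4 weeks such a gap was called in 3 and 32 members, and in 28.1 and 23% of all tested genes. In the next 400 ranks 30.2% had one at 2 weeks and 35% at 4 weeks, in either direction. With library size as the only scaling the counts were 32 higher and 61 lower at 2 weeks and 40 higher and 45 lower at 4 weeks. Over all tested genes that scaling gave 59.4% higher and 28.1% lower, then 60.4 and 27.4%. With upper-quartile scaling the member counts were 27 and 69, then 28 and 57. The shares of all tested genes were then 53.3 and 32.8% at 2 weeks and 53.3 and 33% at 4 weeks. TMM factors were 0.819 to 0.846 in BRFM1218 and 1.18 to 1.23 in 1956-1252, which shifted log2 differences by -0.52 at 2 weeks and -0.55 at 4 weeks from those scaled by library size.

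The members' median log2 difference was -0.76 at 2 weeks and -0.56 at 4 weeks with TMM, against 0.09 and 0.11 over all tested genes. This puts the members -0.85 and -0.66 from the median gene, a distance that no scaling factor can change for a fixed list. The next 400 ranks behaved alike, with medians of -0.60 and -0.59. The list itself was ranked on CPM without TMM factors. Ranked by normalised CPM, 82 of the 100 stayed in, and the distance for that ranking was not computed. At 2 weeks 79 members had the same call with TMM and with library size only, 18 higher and 61 lower, and at 4 weeks 62 did, 17 higher and 45 lower. At 2 weeks 9 members, and at 4 weeks 14, were called in opposite directions by the 2 scalings. Same and opposite calls between scalings were not counted over all tested genes, so these counts are not particular to the members.

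The widest strain gaps were deficits in 1956-1252, and they kept their direction under every scaling tried. Reads of both strains were counted on the same set of gene models. The part that differences in sequence or gene copies between the strains have in these and other strain gaps was not tested. TRAVEDRAFT_154726 was measured at 4927, 4971 and 4832 normalised CPM in BRFM1218 at 2 weeks and at 559.7, 551 and 565 in 1956-1252 (log2 difference -3.14, SE 0.04, edgeR adjusted p = 1.48e-20). At 4 weeks it stood at 5008, 4945 and 4990.5 against 528, 494 and 514 (-3.28, SE 0.04). Its highest group mean was 9.73 times its lowest, the widest range of any member. TRAVEDRAFT_41997 was measured at 5540.3, 5359 and 5538 against 653, 666 and 721 at 2 weeks (-3.01, SE 0.04, edgeR adjusted p = 8.3e-20), with a log2 difference of -2.77 at 4 weeks. These 2 members hardly moved with age in either strain, by no more than 0.18 on the log2 scale.

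TRAVEDRAFT_58816 and TRAVEDRAFT_136901 showed strain gaps and age changes together. TRAVEDRAFT_58816 was measured at 3783, 3752 and 3694 normalised CPM in BRFM1218 and at 589.9, 573 and 628 in 1956-1252 at 2 weeks (-2.65, SE 0.04, edgeR adjusted p = 6.79e-19). It fell with age in BRFM1218 by 0.53 on the log2 scale. TRAVEDRAFT_136901 was measured at 6012, 6168 and 5726 against 902, 885 and 854 at 4 weeks (-2.76, SE 0.04, edgeR adjusted p = 5.55e-19), after 3844, 3745 and 3621 against 728, 701 and 756 at 2 weeks. It rose with age by 0.68 in BRFM1218 and by 0.27 in 1956-1252.

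Members higher in 1956-1252 were fewer and their gaps narrower. TRAVEDRAFT_28241 was measured at 946, 947 and 952 normalised CPM in BRFM1218 and at 3649.6, 3556 and 3198 in 1956-1252 at 2 weeks (1.87, SE 0.05, edgeR adjusted p = 2.39e-16), and was higher by 1.57 at 4 weeks. TRAVEDRAFT_161863 was measured at 995, 975 and 1035 against 3069, 3183 and 3374 at 2 weeks (1.68, SE 0.04, edgeR adjusted p = 1.88e-16). TRAVEDRAFT_161318 was higher by 1.66 at 2 weeks and by 0.67 at 4 weeks. No libraries of the 2 strains overlapped for these 3 at 2 weeks.

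At 4 weeks TRAVEDRAFT_136662 and TRAVEDRAFT_118908 joined TRAVEDRAFT_28241 as the largest. TRAVEDRAFT_136662 was measured at 1134, 1139 and 1087 normalised CPM in BRFM1218 and at 2856, 2788 and 2795 in 1956-1252 (1.33, SE 0.04, edgeR adjusted p = 5.36e-16). TRAVEDRAFT_118908 was measured at 998, 917 and 1001 against 2234, 2266 and 2274 (1.22, SE 0.04, edgeR adjusted p = 3.55e-14). It also stood 1.22 higher at 2 weeks, and its interaction of strain and age was not called (edgeR adjusted p = 0.982).

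Both ages gave the same strain call for 75 members, 65 lower and 10 higher in 1956-1252. Over all tested genes 84.7% were called at 2 weeks and 85.5% at 4 weeks. The shares of all genes with the same or a reversed call at both ages were not counted. In 12 members the call reversed between ages, 7 of them lower at 2 weeks and higher at 4 weeks. TRAVEDRAFT_110730 was 1 of these, at -0.58 and 0.56. With library size only, its 2-week value of -0.07 was not called and its 4-week value was 1.11. Among the first 10 ranks, TRAVEDRAFT_30062 was lower in 1956-1252 with TMM, at -0.51 and -0.58, while library size only gave 0.01 and -0.03, with neither called. TRAVEDRAFT_163607 was lower in 1956-1252 at 2 weeks, at -1.67. Its 4-week value was -0.21 with TMM, 0.08 with upper-quartile scaling and 0.34 with library size only.

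**Figure D4:**
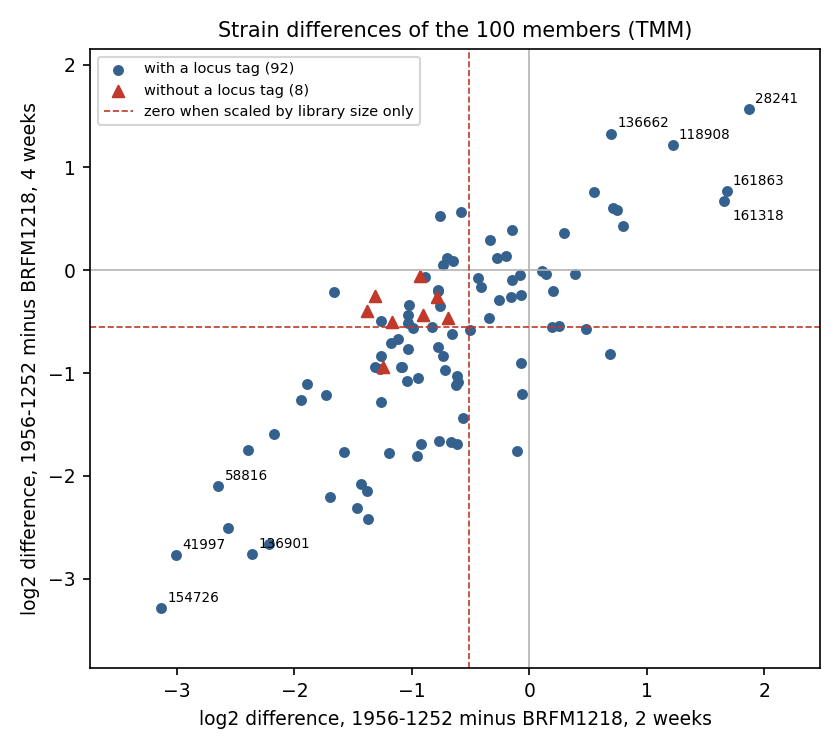
Log2 difference between strains, 1956-1252 minus BRFM1218, at 2 weeks (x axis) and 4 weeks (y axis) for the 100 members after TMM scaling, with 1 point per member, triangles for the 8 without a locus tag and dashed lines where zero lies when libraries are scaled by size only. Most points lie at lower left of the solid zero lines, down to TRAVEDRAFT_154726 at -3.14 and -3.28, and many of them lie between the solid and the dashed lines.

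The members with the most even normalised level were TRAVEDRAFT_39399, TRAVEDRAFT_28124 and TRAVEDRAFT_116287. TRAVEDRAFT_39399 had means of 1205 ± 9.62 and 1327 ± 21.9 normalised CPM in BRFM1218 and 1299.7 ± 64.8 and 1321 ± 26.8 in 1956-1252, and its highest group mean was 1.10 times its lowest. The ratio was also 1.10 for TRAVEDRAFT_28124 and was 1.16 for TRAVEDRAFT_116287. This evenness belonged to TMM scaling: with library size only the 3 were higher in 1956-1252 by 0.63, 0.66 and 0.72 on the log2 scale at 2 weeks and by 0.54, 0.52 and 0.35 at 4 weeks, each called. The ratio of highest to lowest group mean in CPM had a median of 1.85 over the members, 1.83 over the next 400 ranks and 3.33 over all models, and the rule itself favours a small ratio.

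Every member was called in at least 2 of the 4 age and strain comparisons. All 4 called 53 members, 3 called 37 and 2 called 10, where 27.6% of all tested genes were called in 4. Of the 12648 tested genes 436 were called in 0 of 4, and the shares called in 2 or 3 were not counted. Frequent calls were shared with other abundant genes. In the next 400 ranks 77.2 and 72.5% were called with age in BRFM1218 and 1956-1252. Between strains 90.8 and 94% of them were called at 2 and 4 weeks.

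Ranking by reads favoured long models, and the members' lengths spread over nearly the whole range of the gene set. Model length had a median of 1255.5 nt and ran from 150 to 13110 nt, against a median of 1423 nt in the next 400 ranks and 1194 nt over all models. The longest, TRAVEDRAFT_144288, had the lowest mean RPKM of the set, 70.6. Of the members 23% were under 600 nt, against 13.8% of the next 400 ranks and 16.3% of all models. Of the 92 tagged members 16.3% were under 600 nt, while the 8 untagged models were all that short. Ranked by RPKM in the same way, 60 of the 100 stayed in. The 40 that dropped out had a median length of 1913 nt and the 40 that came in one of 464 nt.

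**Figure D5:**
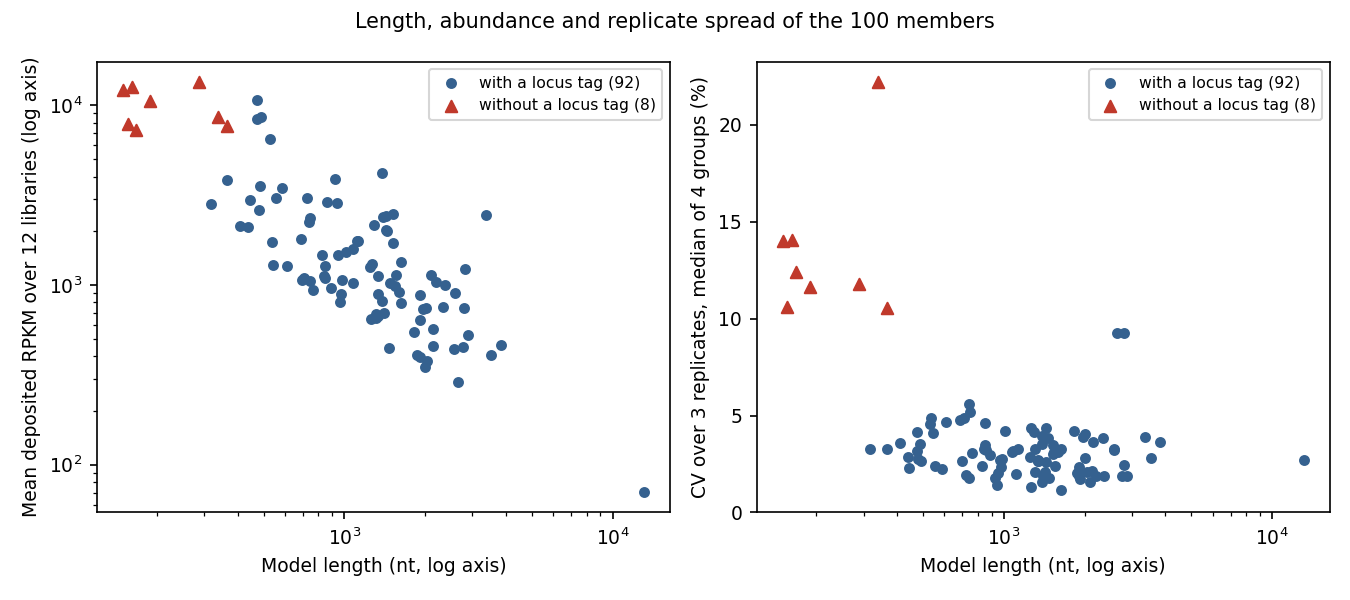
Mean deposited RPKM over the 12 libraries (left, log axis) and the coefficient of variation between replicates as the median of 4 groups (right) against model length in nt (log axis), with 1 point per member and triangles for the 8 without a locus tag. The triangles sit at 150 to 366 nt, with RPKM of 7249 to 13443 and a variation of 10.6 to 22.2%, while the tagged members lie below 10% in the right panel.

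The tagged members varied between cultures about as much as the next ranks. The coefficient of variation had a median of 2.98% over the tagged members, 3.11% over all 100, 3.09% in the next 400 ranks and 7.84% over all models. Of 14122 adjacent pairs of tagged genes, 2 consisted of members. TRAVEDRAFT_110730 lies next to TRAVEDRAFT_42128, which in BRFM1218 rose with age by 0.59 while TRAVEDRAFT_110730 fell by 1.33 on the log2 scale. TRAVEDRAFT_25375 lies next to TRAVEDRAFT_157965, which rose by 0.28 in BRFM1218, where TRAVEDRAFT_25375 rose by 1.02.

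None of the 42 genes that carry a symbol in the gene table was a member. Members are 100 of 14296 models, so by that share alone a list of 42 genes would hold few or none. They include 7 laccase genes (copper oxidases of phenols), 10 lignin peroxidase, 13 manganese peroxidase and 3 versatile peroxidase genes, enzymes that act on lignin. The best placed was LDO1, a gene of the linoleate diol synthase type, in rank 692 with a lowest group mean of 152 CPM. DyP1, encoding a dye-decolorizing peroxidase, reached 1747 CPM in its highest group but 36.4 CPM in its lowest and ranked 3341. The best-placed laccase, TvLac3, ranked 6071 with a lowest group mean of 11.9 CPM.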

How the data were processed

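Per the labels' protocols, total RNA of mycelium from 3 cultures per strain and age was made into Illumina libraries. Per the file headers, the authors deposited for each of 14296 gene models a count of unique gene reads, a count of total gene reads, and an RPKM value, the total count scaled by model length and library size. The aligner, counting tool, use of strand and genome build are not given in the sources used here. Model length was computed from count and RPKM. Protein numbers were matched to locus tags in RefSeq's gene table (Trametes versicolor v1.0), which held 14250 of them and was used for names and gene order only.

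Counts of total reads were scaled to the column total for ranks and shares. Tests used edgeR 4.0.16 (R 4.3.3): filterByExpr (12648 genes left), TMM factors, 1 mean per group over all 12 libraries with 8 residual degrees of freedom, quasi-likelihood tests, and Benjamini-Hochberg adjustment over all tested genes. The common biological coefficient of variation was 8.27%. The 4 age and strain comparisons share libraries and are not independent of each other. The smallest number of reads behind a member in a library was 19695.

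Members and lists were chosen with earlier results of these data known. Genes named are ranks 1 to 10 and 99 to 102, the 3 largest called rises and falls per comparison with replicates that did not overlap, the 3 largest interaction values each way, the 3 most and least even members, the 3 highest in mean RPKM, and the 3 non-members with the highest group mean. The 8 models without a locus tag and the neighbours of members were named after their values were seen. Alternatives were other scalings (RLE, relative log expression; upper quartile; library size only), no filter, DESeq2 1.42.0, unique reads, only the groups compared, a replicate block, each library left out, other numbers of members and other rankings. No sequences of the members were used here.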

Additional observations from a re-analysis of the deposited data

Results flagged for a closer look

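The age change of 13 named members differed between the strains by the interaction test, and each value here is the log2 fold change with age in 1956-1252 minus that in BRFM1218, called in edgeR. For 6 members it was positive: 1.45 for TRAVEDRAFT_163607, 1.28 for TRAVEDRAFT_36747, 1.15 for TRAVEDRAFT_110730, 0.78 for TRAVEDRAFT_47672, 0.54 for TRAVEDRAFT_31191 and 0.51 for TRAVEDRAFT_68340. For 7 it was negative: -0.85 for TRAVEDRAFT_159607, -0.99 for TRAVEDRAFT_161318, -1.05 for both TRAVEDRAFT_169754 and TRAVEDRAFT_25375, -1.14 for TRAVEDRAFT_169073, -1.50 for TRAVEDRAFT_30564 and -1.65 for TRAVEDRAFT_30445. The rule that names genes picks large changes in one strain, so large values are to be found among them.

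The 2 strains moved in opposite called directions in 7 of the 13. TRAVEDRAFT_163607 fell in BRFM1218 and rose in 1956-1252. TRAVEDRAFT_30445, TRAVEDRAFT_30564, TRAVEDRAFT_159607, TRAVEDRAFT_161318 and TRAVEDRAFT_169754 rose in BRFM1218 and fell in 1956-1252, as did TRAVEDRAFT_169073. The rise of TRAVEDRAFT_159607 in BRFM1218 lost its call under several alternatives. TRAVEDRAFT_68340 and TRAVEDRAFT_31191 rose in both strains, more so in 1956-1252. TRAVEDRAFT_110730 and TRAVEDRAFT_47672 fell in both, more so in BRFM1218. TRAVEDRAFT_36747 and TRAVEDRAFT_25375 were called with age in BRFM1218, at -1.16 and 1.02, and not in 1956-1252, where TRAVEDRAFT_36747 was called with some other settings (upper-quartile scaling, library size only, the replicate block, only the groups compared, or without BRFM1218 4-week replicate 2). The 13 interaction values kept their sign and their call under every alternative run.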

How the results depend on the processing

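With unique reads the share of the 100 members was 19.0% in BRFM1218 at 2 weeks and 17.3 and 16.3% in 1956-1252 at 2 and 4 weeks. As a share of summed RPKM it was 26.9, 22.9, 26.0 and 24.7% in the order of the report, and without the 8 untagged models, a choice made after seeing the data, 17.1, 16.9, 16.0 and 15.0%. The top 100 by RPKM kept 60 members and held 16.0, 14.5, 15.0 and 14.2% of reads. The top 50 held 12.8, 12.3, 12.4 and 11.7%, and the top 200 held 26.9, 25.0, 25.3 and 23.6%. With summed RPKM, the RPKM ranking, the top 50 and the top 200, the mean of BRFM1218 at 4 weeks was below that of 1956-1252 at 2 weeks. That is the reverse of their order in the share of reads of the top 100. For the top 50 and the top 200 the gap was smaller than the SD of BRFM1218 at 4 weeks.

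Counts of called members in the top 50 and the top 200, higher and lower, were 23 and 26, then 64 and 112, with age in BRFM1218, and 8 and 23, then 24 and 113, in 1956-1252. Between strains they were 10 and 37, then 40 and 149, at 2 weeks, and 9 and 36, then 40 and 146, at 4 weeks. For the interaction they were 20 and 18, then 87 and 68. These differ by construction, since fewer or more genes are counted. Library size only gave 32 higher at 2 weeks, and 40 higher and 45 lower at 4 weeks, in the strain comparison; upper-quartile scaling gave 28 higher at 4 weeks.

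Leaving out 1 library at a time gave shares of 19.3 to 19.6, 18.2 to 18.6, 17.5 to 17.7 and 16.5 to 16.8%. Counts higher and lower ranged from 35 to 40 and 51 to 56 with age in BRFM1218, and from 11 to 16 and 48 to 53 in 1956-1252. For strain they ranged from 16 to 18 and 75 to 81 at 2 weeks, and from 15 to 18 and 71 to 76 at 4 weeks, and for the interaction from 41 to 46 and 31 to 39. The members chosen differed by at most 1, with 99 to 100 kept.

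Signs turned as follows on the log2 scale. Library size only gave 0.015 and 0.0095 for the age changes of TRAVEDRAFT_25375 and TRAVEDRAFT_28124 in 1956-1252 and 0.0095 for the 2-week strain difference of TRAVEDRAFT_30062. For the 4-week strain difference, library size only gave 0.12 for protein number 137427, 0.34 for TRAVEDRAFT_163607, 0.29 for protein number 41103, 0.54 for TRAVEDRAFT_39399, 0.52 for TRAVEDRAFT_28124 and 0.35 for TRAVEDRAFT_116287. Upper-quartile scaling gave 0.084 for TRAVEDRAFT_163607, 0.039 for protein number 41103, 0.29 for TRAVEDRAFT_39399, 0.26 for TRAVEDRAFT_28124 and 0.095 for TRAVEDRAFT_116287, and RLE and DESeq2 gave 0.012 and 0.013 for TRAVEDRAFT_39399. For strain differences, the TMM values lie -0.52 at 2 weeks and -0.55 at 4 weeks from those with library size only, which is the shift of zero between these scalings and accounts for these turns. Upper-quartile scaling moved strain differences from TMM in the same direction as library size only did. Its medians over all tested genes were 0.39 at 2 weeks and 0.40 at 4 weeks, against 0.09 and 0.11 with TMM. For the other turns the cause was not tested. With 1 library left out, age changes in 1956-1252 that were not called ranged from -0.14 to 0.029 for TRAVEDRAFT_25375, from -0.23 to 0.010 for protein number 137427, from -0.052 to 0.17 for protein number 41103 and from -0.030 to 0.061 for TRAVEDRAFT_39399, whose 4-week strain difference ranged from -0.037 to 0.0028.

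The 18 pairs of same-numbered libraries had correlations of deviations from -0.21 to 0.10, none over 0.1. With 3 libraries per group these correlations cannot show that same-numbered libraries had nothing else in common. Among the 8 untagged models replicate 2 was lowest in 7 of 8 in both BRFM1218 groups and in 8 of 8 in both 1956-1252 groups. Whether same-numbered libraries shared a batch was not tested. With the number as a replicate block the counts higher and lower were 40 and 53, 15 and 50, 18 and 77, 17 and 74, and 46 and 34 in the order above.

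Depth was not limiting for members. No function is attached to any member, each strain is 1 isolate, and a share of reads moves with the amounts of all other transcripts. Fits were made with 3 libraries per group.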

Other observations

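The 3 genes outside the 100 with the highest single group mean had these levels by library. TRAVEDRAFT_150580 was measured at 7228, 7346 and 7097 CPM in BRFM1218 at 2 weeks and at 9514, 9633 and 9355 at 4 weeks, against 131.6 to 203 CPM in the 6 libraries of 1956-1252. TRAVEDRAFT_141737 lay between 6059.7 and 8896 CPM in BRFM1218 and between 6.72 and 41.6 CPM in 1956-1252. TRAVEDRAFT_31303 lay between 341 and 415 CPM in BRFM1218 and between 6510.4 and 7513 CPM in 1956-1252. In each case the strains were separate in all 12 libraries. A wide gap between some groups follows from choosing non-members by their highest group mean. The part that differences in sequence or gene copies between the strains have in these gaps was not tested.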
